A study of Mus musculus with 12 samples.

Results

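The 10 genes described here encode the enzymes that make fatty acids and place double bonds in them, *Fasn*, *Acaca*, *Acly*, *Acss2*, *Scd1*, *Scd2*, *Elovl5*, *Elovl6*, *Fads1* and *Fads2*. They were taken by symbol from 45563 analyzed symbols, and all 10 were among the 18081 genes tested. In the cytosol, *Acly* cleaves citrate and *Acss2* activates acetate, and both yield acetyl-CoA. *Acaca* carboxylates it to malonyl-CoA, and *Fasn* joins these units into palmitate. Enzymes of the endoplasmic reticulum then lengthen the chain (*Elovl6* for saturated and monounsaturated chains, *Elovl5* for polyunsaturated ones) and desaturate it (*Scd1* and *Scd2* to monounsaturated fatty acids, *Fads2* and *Fads1* along the path to arachidonic and docosahexaenoic acid). Cells of the oligodendrocyte lineage are known for a high demand for these lipids, since myelin is built largely of lipid.

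RNA was sequenced from cultured oligodendrocyte precursor cells (OPCs) of pups of the strain labeled C57BL/6 (C57BL/6J in the study's methods), either wild type (WT) or carrying a germline knockout of TNFR2, the second receptor of tumor necrosis factor (TNF). The age of the pups is given as postnatal days 2 to 5 by the labels, and the OPCs were drawn from cortex with beads against PDGFRα and grown for 3 days in vitro. Cultures were left non-stimulated (NS) or stimulated (St) for 3 h with TNF, IFNγ and IL1β, each at 25 ng/mL. The groups were WT NS, WT St, TNFR2-/- NS and TNFR2-/- St, with 3 libraries each. They are numbered replicates 2, 3 and 4 in WT and 2, 4 and 5 in TNFR2-/-, and 3 values given together follow that order. Receptor loss was germline and affected every cell, so the genotype groups do not separate the OPC from its former surroundings, and the labels do not say how many pups formed a culture. NS and St libraries of 1 genotype with the same replicate number deviated together from their group means and were read as a pair.

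Library totals ranged from 26886878 to 30335265 read pairs, and the 10 genes had from 1804 (*Acss2*) to 162838 (*Scd2*) read pairs in a library. The targeted gene *Tnfrsf1b* had 12 to 24 (NS) and 61 to 145 (St) read pairs in WT libraries. In libraries labeled TNFR2-/- it had 213 to 346 (NS) and 282 to 356 (St). Libraries labeled TNFR2-/- therefore had more of its reads and not fewer, these reads do not show which exons remain, and every direction between genotypes rests on the labels. OPC markers (6 genes) summed to 6278 to 8952 RPM (read pairs scaled to the library total) across the 12 libraries, and 8 microglial markers to 9.91 to 12.9. The 8 astrocyte markers summed to 1971 to 2283 RPM in WT NS, 1858 to 1939 in WT St, 2854.5 to 4545 in TNFR2-/- NS and 2871 to 4451 in TNFR2-/- St. Markers of mature oligodendrocytes (10 genes) summed to 535 to 1307 RPM, of mural cells and fibroblasts (7) to 75.7 to 872, of neurons (6) to 720 to 1127 and of endothelium (6) to 28.5 to 63.1. No marker of these lists was at 0 in every library, so all 8 astrocyte markers were detected in these OPC cultures. In bulk RNA, fewer cells of a type and less RNA per cell cannot be told apart.

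Promoters of 7 of the 10 genes were found in the RefSeq table (build GRCm38.p6). Those of *Fasn* and *Acly*, which fell in both genotypes, and of *Elovl6*, which had the largest genotype difference of the 10, are shown as the 250 bases before the RefSeq start. Capitals mark CCAAT boxes (CCAAT) and GC boxes (GGGCGG) on either strand, where CCAAT reads ATTGG and GGGCGG reads CCGCCC on the opposite strand.

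Fasn, chr11:120824548-120824797, minus strand: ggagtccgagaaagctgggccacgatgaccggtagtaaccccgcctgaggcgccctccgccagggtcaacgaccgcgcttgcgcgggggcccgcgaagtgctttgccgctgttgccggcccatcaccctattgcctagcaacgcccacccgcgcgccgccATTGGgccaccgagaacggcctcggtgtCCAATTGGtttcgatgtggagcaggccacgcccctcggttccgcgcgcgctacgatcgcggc

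Acly, chr11:100528001-100528250, minus strand: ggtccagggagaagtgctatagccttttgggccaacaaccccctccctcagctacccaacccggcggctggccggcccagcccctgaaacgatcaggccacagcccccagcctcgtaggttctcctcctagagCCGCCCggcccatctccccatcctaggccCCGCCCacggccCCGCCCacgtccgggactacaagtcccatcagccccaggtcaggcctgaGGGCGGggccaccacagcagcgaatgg

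Elovl6, chr3:129532136-129532385, plus strand: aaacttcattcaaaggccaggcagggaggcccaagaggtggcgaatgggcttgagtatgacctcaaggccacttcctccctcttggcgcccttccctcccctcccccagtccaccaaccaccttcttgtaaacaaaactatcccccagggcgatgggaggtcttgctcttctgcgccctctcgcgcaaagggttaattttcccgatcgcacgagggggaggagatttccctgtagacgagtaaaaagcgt

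*Fasn* held 3 CCAAT boxes, of which 2 overlap, from 90 to 55 bases before the start. *Acly* held 4 GC boxes and no CCAAT box, and *Elovl6* held neither. Of the 7 promoters, 3 held a CCAAT box (*Acss2*, *Elovl5* and *Fasn*), against 33.8% of all 32851 promoters of this length, and 3 held a GC box (*Acss2*, *Acly* and *Fads2*), against 32.7%. The sterol regulatory element, known as the site through which SREBP factors act on lipid genes, was searched as TCACCCCAC and as the shorter CACCCCAC inside it. Neither was in any of the 7, and they were in 0.496% and 2.58% of all promoters. The E-box CACGTG was in 1 of the 7 (*Elovl5*) and in 6.02% of all. These matches describe letters in a window and not bound sites.

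Genes can be compared with each other only per length, because the divisor behind the deposited FPKM (fragments counted per length and per library size) did not follow gene length: for *Acaca* it was 79 bases against 17074 annotated exon bases. As RPM per kilobase of annotated exon, *Scd2* had by far the highest level, 714 ± 132 (mean ± SD over 12 libraries, range 543 to 982). *Scd1*, its neighbor 87590 bases away on chromosome 19, followed at 166 ± 33.1. *Elovl5* (149 ± 11.3) and *Fads2* (126 ± 15.9) came next. *Acly* was at 86.9 ± 15.2, *Fasn* at 82.0 ± 16.7 and *Fads1* at 73.6 ± 11.2. *Elovl6* stood at 53.9 ± 9.92, and *Acss2* (8.99 ± 1.87) and *Acaca* (8.07 ± 0.861) were lowest.

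These SDs span groups with different means, and within a group the order was in part another. In WT NS, *Acly* (107 ± 5.06) and *Fasn* (100.6 ± 4.94) lay within 2 SD of each other and well above *Fads1* (75.1 ± 2.70). In WT St, *Elovl5* (146 ± 1.35) was above *Scd1* (134 ± 3.67), and in TNFR2-/- St *Acss2* (6.91 ± 1.01) and not *Acaca* (7.51 ± 0.695) had the lowest mean. *Scd2* was first in every group. All isoform exons enter the length, so a gene with many annotated exons is placed too low. *Scd1* and *Scd2* together held 57.1% to 58.0% of the read pairs of the 10 genes in WT NS and 60.2% to 64.6% in TNFR2-/- NS libraries. Sequence shared with other genes limits some counts: 23.7% of the 100-base stretches of *Acaca* transcripts recur elsewhere, mostly in the pseudogene *Gm5182*, against 2.58% of *Scd1*, 0.879% of *Scd2* and none of *Fasn*, *Acly*, *Elovl5*, *Fads1* or *Fads2*. *Acss2* overlaps *Ggt7* and *Gss* on the opposite strand (up to 1796 and 632 read pairs in a library). Whether the counting used strand is not stated, so reads of these genes cannot be told apart with certainty.

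After cytokine stimulation, 6 of the 10 genes fell in WT and 7 in TNFR2-/- OPCs at an adjusted p of at most 0.05, and none rose. *Fasn*, *Acly*, *Scd1* and *Fads1* fell in both genotypes, and no change reached 1.5-fold. All 10 genes were lower in St than in the NS library of the same number in 6 of 6 pairs, which held for 29.6% of all genes tested and for 38.3% of genes with a mean of at least 1000 reads. Together the 10 genes took 0.870% ± 0.0342 of all reads in WT NS and 0.673% ± 0.00764 in WT St (SD, n = 3). In TNFR2-/- OPCs the share was 0.923% ± 0.0877 in NS and 0.709% ± 0.0824 in St (SD, n = 3). The St libraries of both genotypes all lay below every NS library, and TNFR2-/- replicate 2 was the lowest of its group in both conditions. Marker sums moved with stimulation as well. The 6 OPC markers had sums of 7516 to 8952 RPM without and 6278 to 7273 with stimulation in WT, and of 7685 to 7921 without and 6920 to 7381 with it in TNFR2-/- OPCs, with median log2 differences of −0.35 and −0.49. Of them, 3 fell and 1 rose in WT, and 4 fell in TNFR2-/- OPCs. The 6 neuronal markers summed to 720 to 884 RPM in the NS and 1029 to 1127 in the St libraries. Of the 6, *Tubb3* had 1155 to 2146 read pairs in NS and 11535 to 14263 in St libraries. In WT 3 of the 6 were lower and 3 higher (median log2 −0.003), 2 and 1 of them past the adjusted p. In TNFR2-/- OPCs 2 were lower and 4 higher (median 0.35), 1 each way past it. The part of these marker changes in the values of the 10 genes was not tested.

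Among the enzymes that supply acetyl-CoA, *Acly* (ENSMUSG00000020917, chromosome 11, 100476353 to 100528000) was at 297, 326 and 307 FPKM in WT NS and at 237, 243 and 236 in WT St. In TNFR2-/- OPCs it was at 257, 277 and 248 in NS and at 194, 211 and 184 in St. St libraries lay below NS libraries in each genotype with no overlap. *Acly* fell by 0.38 ± 0.06 (log2 fold change ± SE; limma, adjusted p = 0.00218) in WT and by 0.40 ± 0.06 (adjusted p = 0.000991) in TNFR2-/- OPCs. *Acss2* (ENSMUSG00000027605, chromosome 2, 155517948 to 155585724) was at 13.4, 14.9 and 13.7 FPKM in WT NS and 10.96, 11.2 and 9.75 in WT St. Its TNFR2-/- libraries were at 11.3, 15.7 and 11.8 in NS and at 8.36, 10.4 and 7.98 in St. The groups did not overlap within a genotype, although NS replicate 4 of TNFR2-/- stood above the rest. The log2 difference was −0.38 ± 0.13 (adjusted p = 0.0903) in WT, and *Acss2* fell by 0.50 ± 0.13 (adjusted p = 0.0195) in TNFR2-/- OPCs.

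*Fasn* (ENSMUSG00000025153, chromosome 11, 120805846 to 120824547), which encodes fatty acid synthase, fell furthest in both genotypes. It was at 1142, 1201 and 1088 FPKM in WT NS and at 753, 834 and 786 in WT St. The TNFR2-/- libraries were at 986, 1133 and 1070.1 in NS and at 664, 797 and 733 in St. The highest St library was below the lowest NS library in each genotype. *Fasn* fell by 0.53 ± 0.08 (adjusted p = 0.000847) in WT and by 0.54 ± 0.08 (adjusted p = 0.00057) in TNFR2-/- OPCs, a fitted change of −31.2%. *Acaca* (ENSMUSG00000020532, chromosome 11, 84129672 to 84401651), the acetyl-CoA carboxylase of the cytosol, was at 1889, 2083 and 1836 FPKM in WT NS and at 1483, 1645 and 1595 in WT St. It was at 1767, 1803 and 1951 in TNFR2-/- NS and at 1465, 1639 and 1764 in TNFR2-/- St. Here the TNFR2-/- groups came within a few FPKM of each other. *Acaca* fell by 0.30 ± 0.08 (adjusted p = 0.0276) in WT, and the difference in TNFR2-/- OPCs was −0.18 ± 0.08 (adjusted p = 0.116).

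**Figure D1:**
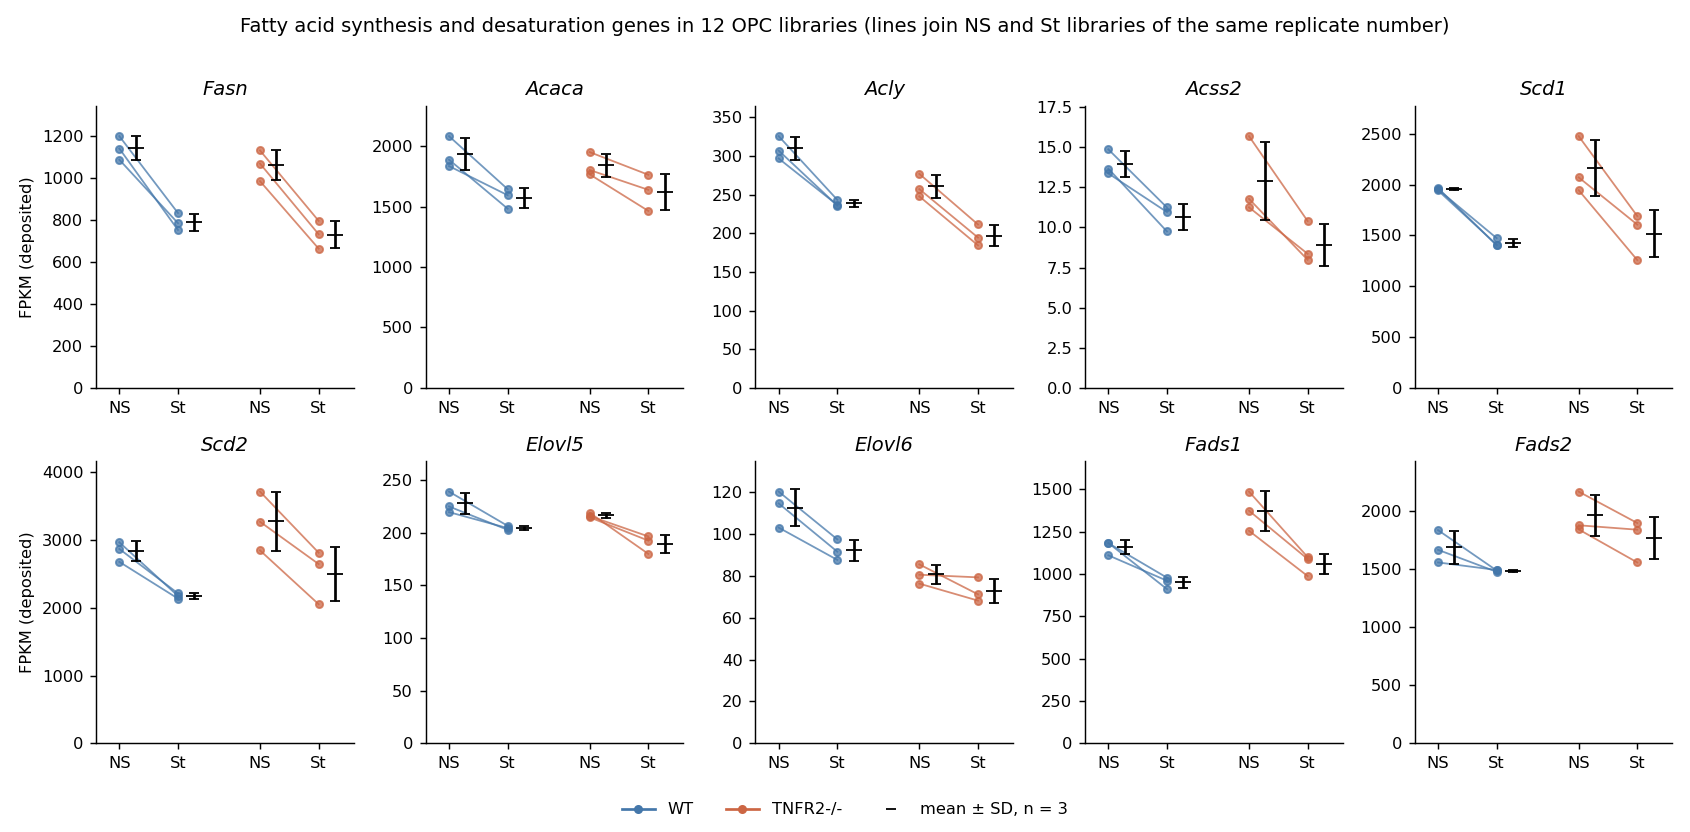
Deposited FPKM of the 10 genes (y axis, from 0, with a scale of its own for each gene) in NS and St OPCs of WT and TNFR2-/- origin. Points are libraries, lines join NS and St libraries of the same replicate number, and bars give mean ± SD (n = 3). Every line slopes down, and in WT no St point reaches the NS points.

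The stearoyl-CoA desaturases place the first double bond in saturated chains. *Scd1* (ENSMUSG00000037071, chromosome 19, 44394455 to 44407879) was at 1953, 1944 and 1967 FPKM in WT NS and at 1474, 1409 and 1403 in WT St. TNFR2-/- libraries spread more, from 1946 and 2072 to 2477 in NS and from 1258 and 1607 to 1691 in St. *Scd1* fell by 0.45 ± 0.11 (adjusted p = 0.0188) in WT and by 0.52 ± 0.11 (adjusted p = 0.00664) in TNFR2-/- OPCs. In both conditions TNFR2-/- replicate 5 was highest and replicate 2 lowest. *Scd2* (ENSMUSG00000025203, chromosome 19, 44293674 to 44306864) was at 2869, 2967 and 2678 FPKM in WT NS and at 2213, 2175 and 2136 in WT St. It was at 2847, 3269.9 and 3715 in TNFR2-/- NS and at 2053, 2646 and 2814 in TNFR2-/- St, with the same order of replicates as *Scd1*. Its log2 difference was −0.38 ± 0.12 (adjusted p = 0.0549) in WT, and it fell by 0.39 ± 0.12 (adjusted p = 0.0348) in TNFR2-/- OPCs.

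Of the elongases, *Elovl6* (ENSMUSG00000041220, chromosome 3, 129532355 to 129638495) was at 103, 120.3 and 115 FPKM in WT NS and at 87.6, 97.5 and 91.6 in WT St. In TNFR2-/- OPCs it was at 76.3, 85.5 and 80.5 in NS and at 68.2, 71.2 and 79.3 in St. WT groups did not overlap, whereas the pair of TNFR2-/- replicate 5 differed by −1.57%, against −10.6% and −16.7% in the other TNFR2-/- pairs. *Elovl6* fell by 0.29 ± 0.08 (adjusted p = 0.0329) in WT, and the difference in TNFR2-/- OPCs was −0.15 ± 0.08 (adjusted p = 0.203). *Elovl5* (ENSMUSG00000032349, chromosome 9, 77917364 to 77984519) was at 219, 239 and 225 FPKM in WT NS and at 204, 206 and 203 in WT St. It was at 214, 219 and 216 in TNFR2-/- NS and at 192, 179.8 and 196 in TNFR2-/- St. Its difference was among the smallest but spread little, with −0.15 ± 0.05 (adjusted p = 0.0573) in WT, and it fell by 0.19 ± 0.05 (adjusted p = 0.0156) in TNFR2-/- OPCs.

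The desaturases of polyunsaturated fatty acids lie 81141 bases apart on chromosome 19. *Fads1* (ENSMUSG00000010663, 10182888 to 10196877) was at 1182, 1183 and 1110.2 FPKM in WT NS and at 978, 911 and 960.1 in WT St. It was at 1255, 1374 and 1486 in TNFR2-/- NS and at 988, 1089 and 1099.7 in TNFR2-/- St. *Fads1* fell by 0.29 ± 0.07 (adjusted p = 0.0175) in WT and by 0.37 ± 0.07 (adjusted p = 0.00292) in TNFR2-/- OPCs, with no overlap in either. *Fads2* (ENSMUSG00000024665, 10062765 to 10101746) was at 1833, 1664 and 1555 FPKM in WT NS and at 1486, 1475 and 1491 in WT St. It was at 1839, 1875 and 2164 in TNFR2-/- NS and at 1555, 1837 and 1894 in TNFR2-/- St, and these groups overlapped. *Fads2* passed the test in neither genotype, with −0.18 ± 0.09 (adjusted p = 0.241) in WT and −0.15 ± 0.09 (adjusted p = 0.248) in TNFR2-/- OPCs.

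At an adjusted p of at most 0.05, 6 of the 10 genes fell in WT (*Fasn*, *Acly*, *Fads1*, *Scd1*, *Acaca* and *Elovl6*), against 8.36% of all genes tested and 11.2% of genes with a mean of at least 1000 reads. In TNFR2-/- OPCs 7 fell (*Fasn*, *Acly*, *Fads1*, *Scd1*, *Elovl5*, *Acss2* and *Scd2*), against 16.3% and 19.9%. St and NS groups did not overlap for 10 of 10 genes in WT and 8 of 10 in TNFR2-/- OPCs, against 37.7% and 37.3% of all genes. A call of differential expression also required a 1.5-fold change and an average level over all libraries of 1 FPKM or more, and limma called none of the 10 in either genotype, against 7.53% of genes in WT and 10.1% in TNFR2-/- OPCs. At an unadjusted p under 0.05 there were 9 and 8, all lower, against 16.6% and 25.4% of all genes, and voom on recovered reads called none either. Without TNFR2-/- NS replicate 2, 3 of the 10 met all criteria in TNFR2-/- OPCs, 2 did without TNFR2-/- St replicate 4 and 1 without TNFR2-/- St replicate 5. Over all genes, 1824 met them with every library, and 1793, 1692 and 1850 in these fits, in that order. Without WT NS replicate 3 only 2 of the 10 passed the adjusted p in WT, and 3 each without WT NS replicate 2 or WT St replicate 4. All criteria were met in WT by 1361 genes with every library, and by 1238, 1223 and 1206 in these fits.

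With the pair as a block, 9 of 10 genes passed the adjusted p in WT and 9 of 10 in TNFR2-/- OPCs, all lower, against 20.2% and 31.7% of all genes, again with none called by all criteria. The block brought in *Acss2* (adjusted p = 0.00391), *Scd2* (0.000722) and *Elovl5* (0.026) in WT, and *Acaca* (0.0129) and *Elovl6* (0.0483) in TNFR2-/- OPCs. *Fads2* alone stayed above the threshold in both genotypes. The median log2 difference of the 10 genes was −0.34 in WT, where all genes had a median of −0.05, and −0.38 in TNFR2-/- OPCs, where all genes had −0.11. With the libraries rescaled by median-of-ratios factors, the all-gene medians were −0.01 and −0.02, the 10 genes had medians of −0.28 and −0.27, and all 10 were lower in both genotypes, but *Acaca* (adjusted p = 0.0762) and *Elovl6* (0.0992) in WT and *Scd2* (0.144), *Acss2* (0.0841) and *Elovl5* (0.346) in TNFR2-/- OPCs were then above 0.05.

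**Figure D2:**
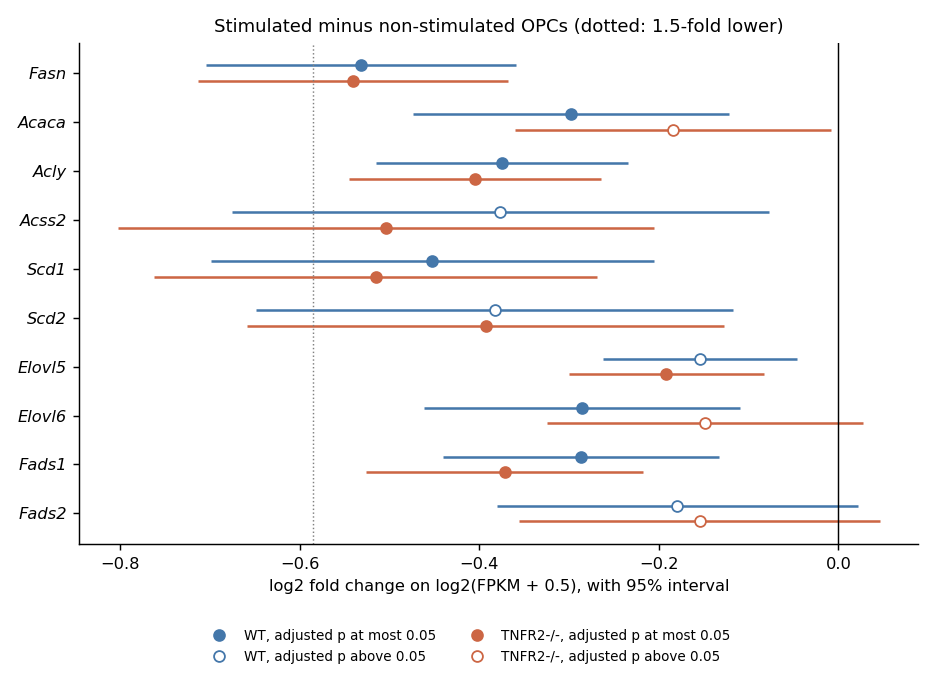
Log2 fold change of St against NS OPCs (x axis) for the 10 genes in WT (blue) and TNFR2-/- (orange) cultures, with 95% intervals from limma, and filled points at an adjusted p of at most 0.05. All 20 points lie left of 0 and right of the dotted line, which marks 1.5-fold lower.

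The response to stimulation did not differ detectably between genotypes for any of the 10 genes. In the test of the difference itself (the interaction of genotype and stimulation), differences of response ranged from −0.13 (*Acss2*) to 0.14 (*Elovl6*), and the lowest adjusted p was 0.827. None had an unadjusted p under 0.05, against 7.95% of all genes. Of the 18081, 1 gene (0.00553%) passed the adjusted p and all criteria. The 95% interval of that difference was −0.25 to 0.24 for *Fasn*, −0.23 to 0.17 for *Acly* and −0.11 to 0.39 for *Elovl6*. These intervals are from the fit without the pair as a block, which could not see differences of response within them. With the pair as a block none of the 10 passed the adjusted p either.

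In NS OPCs, TNFR2-/- libraries had less *Elovl6* and *Acly* than WT libraries, while *Fads1*, *Fads2*, *Scd2* and *Scd1* had higher means. *Elovl6* was at 76.3 to 85.5 FPKM in TNFR2-/- NS against 103 to 120.3 in WT NS, a difference of −28.1% (log2 −0.48 ± 0.08, adjusted p = 0.0142). *Acly* was at 248 to 277 FPKM against 297 to 326, a difference of −15.9% (−0.25 ± 0.06, adjusted p = 0.0356). *Elovl6* and *Acly* were the 2 of 10 genes that passed the adjusted p, both lower, against 4.75% of all genes lower and 6.11% higher. The genotype and stimulation comparisons share the NS libraries, and each is given by its own values.

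Higher in TNFR2-/- NS without passing were *Fads1* by 0.24 ± 0.07 (adjusted p = 0.0508), *Fads2* by 0.22 ± 0.09 (0.138), *Scd2* by 0.20 ± 0.12 (0.292) and *Scd1* by 0.14 ± 0.11 (0.435). *Fads1* and *Fads2* did not overlap between the genotypes, and *Fads1* passed when genes averaging under 1 FPKM were left untested (adjusted p = 0.0398), with voom (0.0424) or without TNFR2-/- NS replicate 2 (0.0488). *Elovl5*, *Acaca*, *Fasn* and *Acss2* differed by −0.07 to −0.12 (adjusted p from 0.351 to 0.591). The groups did not overlap for 5 of 10 genes (*Acly*, *Elovl5* and *Elovl6* lower, *Fads1* and *Fads2* higher), against 34.2% of all genes.

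After stimulation the same 5 genes did not overlap, in the same directions, against 32.7% of all genes. St libraries were read as pairs with the NS libraries, so this comparison is not independent of the one in NS OPCs. *Elovl6* was at 68.2 to 79.3 FPKM in TNFR2-/- St and 87.6 to 97.5 in WT St (−0.34 ± 0.08, adjusted p = 0.0407). *Acly* was at 184 to 211 against 236 to 243 (−0.28 ± 0.06, adjusted p = 0.0381). In this comparison 2 of 10 genes passed, both lower, against 2.75% of genes lower and 2.7% higher. Of the others, *Fads2* was higher by 0.24 ± 0.09 (adjusted p = 0.125), *Scd2* by 0.19 ± 0.12 (0.336) and *Fads1* by 0.16 ± 0.07 (0.183), and *Elovl5* differed by −0.11 ± 0.05 (0.181). None of the 10 met all criteria for differential expression between genotypes, where 2.9% of genes did in NS and 1.8% in St OPCs. At an unadjusted p under 0.05 there were 4 in NS and 5 in St OPCs, against 30.2% and 26.7% of all genes, and voom called none by all criteria.

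The genotype calls depended on single libraries, for *Acly* and *Elovl6* and over all genes. In NS OPCs *Acly* and *Elovl6* were both above 0.05 without WT NS replicate 3 (adjusted p = 0.137 and 0.0666), WT NS replicate 4 (0.0996 and 0.0614) or TNFR2-/- NS replicate 5 (0.115 and 0.0504), and *Acly* also without TNFR2-/- NS replicate 2 (0.091). *Acly* further missed it without WT St replicate 2 (0.0505) or 4 (0.0572), which enter only through the shared spread. In St OPCs both were above 0.05 without any one of the 3 WT St libraries, TNFR2-/- St replicate 2 or 5, WT NS replicate 4 or TNFR2-/- NS replicate 2, and *Elovl6* without TNFR2-/- St replicate 4, with adjusted p up to 0.131 for *Acly* and 0.148 for *Elovl6*. The direction of both genes held in every one of these fits. Over all genes, 524 met all criteria in NS OPCs with every library. Only 49, 54 and 78 did without WT NS replicate 3, WT NS replicate 4 or TNFR2-/- NS replicate 5, in that order. More did without WT NS replicate 2 (566) or TNFR2-/- NS replicate 4 (953). In St OPCs 325 met them with every library. There, 49, 39 and 71 did without WT St replicate 3, WT St replicate 4 or TNFR2-/- St replicate 5. More did without TNFR2-/- St replicate 4 (462).

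**Figure D3:**
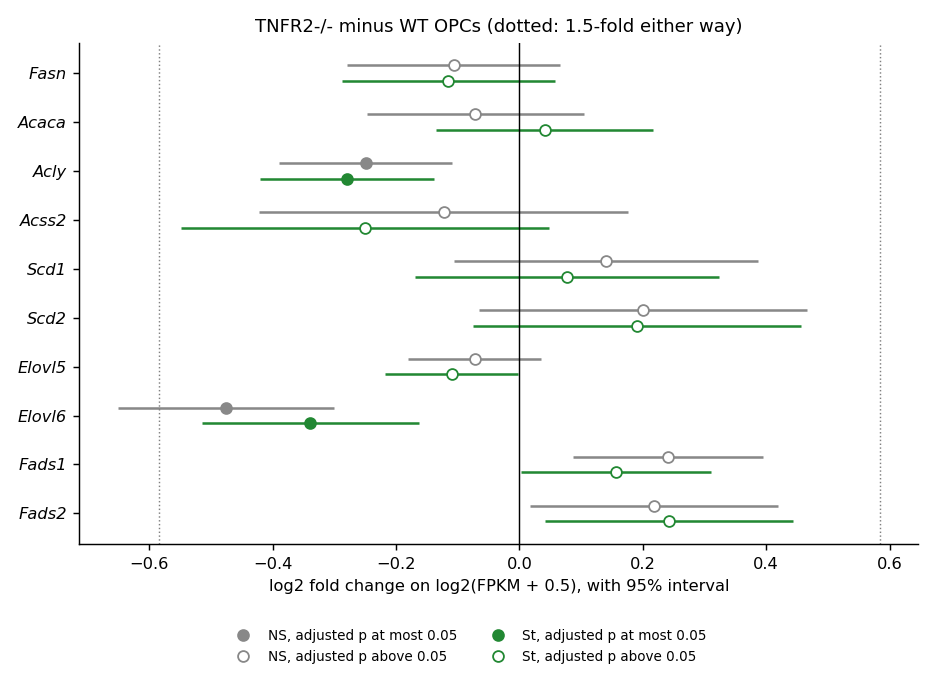
Log2 fold change of TNFR2-/- against WT OPCs (x axis) for the 10 genes in NS (gray) and St (green) cultures, with 95% intervals from limma, and filled points at an adjusted p of at most 0.05. *Elovl6* and *Acly* lie left of 0 in both conditions, and *Scd1*, *Scd2*, *Fads1* and *Fads2* lie right of it.

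Ratios within a library do not depend on how libraries are scaled. For each read pair of *Elovl5*, WT NS libraries had 0.723, 0.775 and 0.785 read pairs of *Elovl6*, and TNFR2-/- NS libraries 0.548, 0.602 and 0.575. In St OPCs the ratio was 0.661, 0.727 and 0.696 in WT and 0.546, 0.61 and 0.622 in TNFR2-/- libraries. The genotypes did not overlap in either condition. Within pairs, the ratio was lower in St than in NS in 3 of 3 WT pairs and in 1 of 3 TNFR2-/- pairs. The ratio of *Scd2* to *Scd1* read pairs was 4.57 ± 0.263 in WT NS, 4.79 ± 0.0662 in WT St, 4.77 ± 0.185 in TNFR2-/- NS and 5.19 ± 0.0497 in TNFR2-/- St (SD, n = 3), and was higher in St than in NS in 6 of 6 pairs. The ratio of *Fads1* to *Fads2* read pairs was 0.893 ± 0.0506 in WT NS and 0.828 ± 0.0267 in WT St (SD, n = 3). In TNFR2-/- libraries it was 0.907 ± 0.0361 in NS and 0.780 ± 0.0371 in St. These ratios were not tested, and how often the ratios of other gene pairs differ in this way was not counted.

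**Figure D4:**
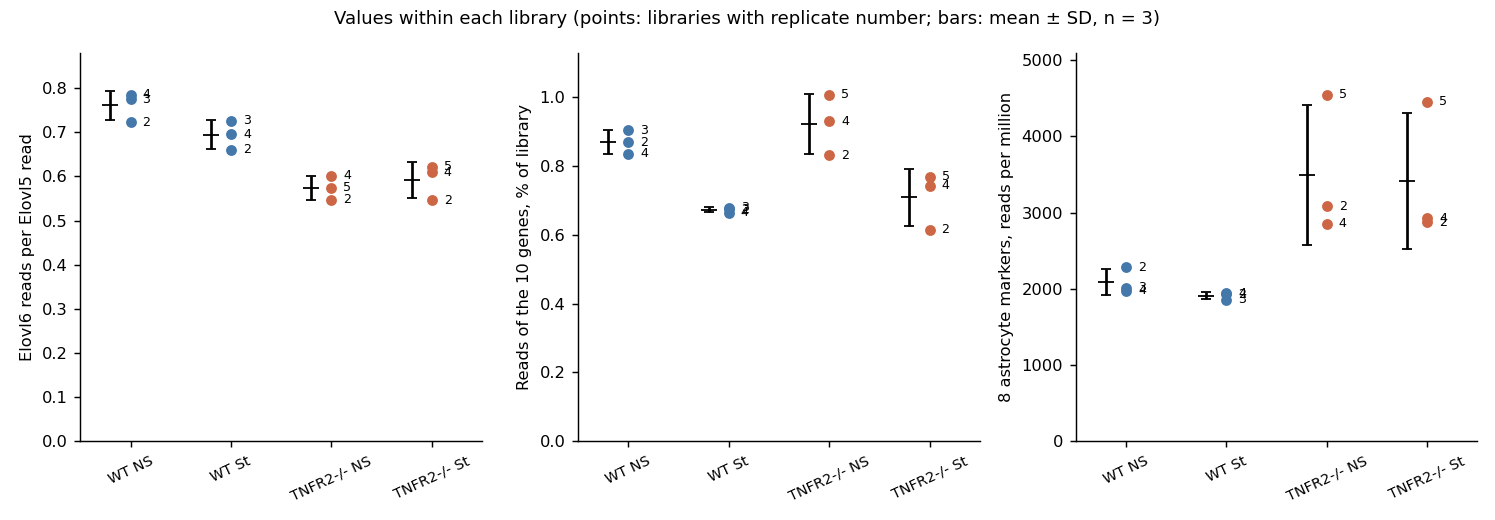
Values within each library (y axes, from 0) for the 4 groups, as read pairs of *Elovl6* per read pair of *Elovl5*, the share of library reads held by the 10 genes in percent, and the summed RPM of 8 astrocyte markers. Points are libraries with their replicate number and bars are mean ± SD (n = 3); TNFR2-/- replicate 5 has the highest astrocyte sum in both conditions.

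Astrocyte markers moved with genotype. All 8 were higher in TNFR2-/- than in WT OPCs in both conditions, with a median log2 difference of 0.88 in NS (3 past the adjusted p, among them *Gja1*, a gap junction protein, at 0.92 and *Fgfr3* at 0.90) and 0.80 in St (2 past it). The sum was highest in TNFR2-/- replicate 5, at 4545 RPM in NS and 4451 in St, against 2854.5 to 3082 in the other TNFR2-/- libraries. The same replicate had the highest *Scd1*, *Scd2*, *Fads1* and *Fads2* of the NS libraries. All 10 markers of mature oligodendrocytes were also higher in TNFR2-/- NS, none past the adjusted p, and ranged from 535 to 1030 RPM in WT NS and from 727 to 1307 in TNFR2-/- NS. Markers of mural cells and fibroblasts went the other way, with 5 of 6 tested lower in each condition (medians −0.77 in NS and −1.22 in St, none past the adjusted p), and TNFR2-/- replicate 5 was lowest at 108 RPM in NS and 75.7 in St. Without both TNFR2-/- replicate 5 libraries, *Elovl6* was still lower in NS OPCs (−0.47, adjusted p = 0.0314), while *Acly* in NS (−0.21, 0.0722) and *Acly* (−0.23, 0.0755) and *Elovl6* (−0.40, 0.0533) in St OPCs were above 0.05. The part of these other cells in the genotype differences was not tested.

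Of 17 genes known to control the pathway, 16 had lower means with stimulation in WT and 15 in TNFR2-/- OPCs. Their median log2 differences were −0.21 and −0.27, where all genes had −0.05 and −0.11. Of the 17, 5 fell and 1 rose in WT, and 6 fell and 1 rose in TNFR2-/- OPCs, against 8.36% and 16.3% of genes lower and 7.7% and 9.62% higher. Between genotypes 13 of the 17 had higher means in TNFR2-/- NS (median 0.16) and 12 in TNFR2-/- St (0.07). *Srebf1*, which encodes the transcription factor SREBP-1, had a mean of 159 FPKM in WT NS and 106 in WT St (−0.58 ± 0.24, adjusted p = 0.138), and of 239 in TNFR2-/- NS and 150.3 in TNFR2-/- St (−0.66 ± 0.24, adjusted p = 0.0624). *Insig1*, which retains SREBP factors in the endoplasmic reticulum and is itself a target of theirs, fell by 0.37 (adjusted p = 0.0223) in WT and by 0.48 (0.00379) in TNFR2-/- OPCs. *Mid1ip1*, whose product promotes polymerization of acetyl-CoA carboxylase, fell by 0.34 (0.0223) and 0.42 (0.00515).

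*Rxra*, the partner receptor of the liver X receptors, fell by 0.68 (adjusted p = 0.000503) in WT and by 0.70 (0.00031) in TNFR2-/- OPCs and was called in both. *Nr1h2*, the liver X receptor beta, was the 1 regulator that rose, by 0.49 (0.000461) and 0.48 (0.000393). *Prkaa2*, a catalytic subunit of AMP-activated kinase, which inhibits the carboxylase, fell by 0.73 (0.000209) and 0.56 (0.000953). Between genotypes *Thrsp*, a relative of *Mid1ip1*, stood out with 8.01 ± 1.35 FPKM in WT NS and 21.8 ± 2.71 in TNFR2-/- NS (SD, n = 3). It was higher by 1.39 ± 0.26 (adjusted p = 0.0175) in NS and 1.07 ± 0.26 (0.0445) in St OPCs, on 36 to 208 read pairs per library, and fell with stimulation in TNFR2-/- OPCs by 0.90 (0.0272). *Insig1* differed by −0.39 (0.0427) between TNFR2-/- St and WT St.

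Among lists of neighboring pathways, fatty acid oxidation and cholesterol synthesis differed between genotypes in opposite directions. All 13 oxidation genes had higher means in TNFR2-/- NS OPCs, with a list median of 0.35 against 0.04 for all genes. Of the 13, 8 passed the adjusted p, against 6.11% of all genes higher. *Cpt1a*, the rate-limiting carnitine transferase of mitochondrial import, was at 148 ± 13.4 FPKM in WT NS and 231 ± 26.4 in TNFR2-/- NS (SD, n = 3; 0.64 ± 0.09, adjusted p = 0.00952) and differed as much in St OPCs (0.64 ± 0.09, 0.0102). In St OPCs 12 of 13 were higher and 5 passed, against 2.7% of all genes higher. Of 19 genes of the cholesterol list, 18 were lower in TNFR2-/- NS (11 passed, median −0.39) and all 19 in TNFR2-/- St (14 passed, median −0.52). Of all genes 4.75% and 2.75% passed lower. *Msmo1*, a sterol demethylase, differed by −0.71 ± 0.17 (0.0318) in NS and −0.79 ± 0.17 (0.0348) in St.

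Those directions held under 3 other scalings of the libraries, but the numbers that passed did not hold without single libraries. Without WT NS replicate 3, WT NS replicate 4, TNFR2-/- NS replicate 2 or TNFR2-/- NS replicate 5, no cholesterol gene passed in NS OPCs. In St OPCs 1 passed when WT St replicate 3, WT St replicate 4 or TNFR2-/- St replicate 5 was left out, and 3 when TNFR2-/- St replicate 2 was. Of oxidation genes, 2 passed in NS without WT NS replicate 3 or 4 and 3 without TNFR2-/- NS replicate 5. In St OPCs 1 passed on leaving out WT St replicate 4, 2 on leaving out WT St replicate 3, and 3 on leaving out TNFR2-/- St replicate 5. With both TNFR2-/- replicate 5 libraries out, 5 oxidation and 3 cholesterol genes passed in NS OPCs and 3 and 2 in St OPCs. With stimulation the 19 cholesterol genes were lower in both genotypes, with medians of −0.15 in WT (none passed, and 10 with the pair as a block) and −0.26 in TNFR2-/- OPCs (10 passed). Under median-of-ratios factors 18 and 16 of the 19 were lower, and 0 and 2 passed. The lists were not tested against each other. Astrocyte markers were also higher in TNFR2-/- OPCs, and their part in the genotype differences of these lists was not tested.

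**Figure D5:**
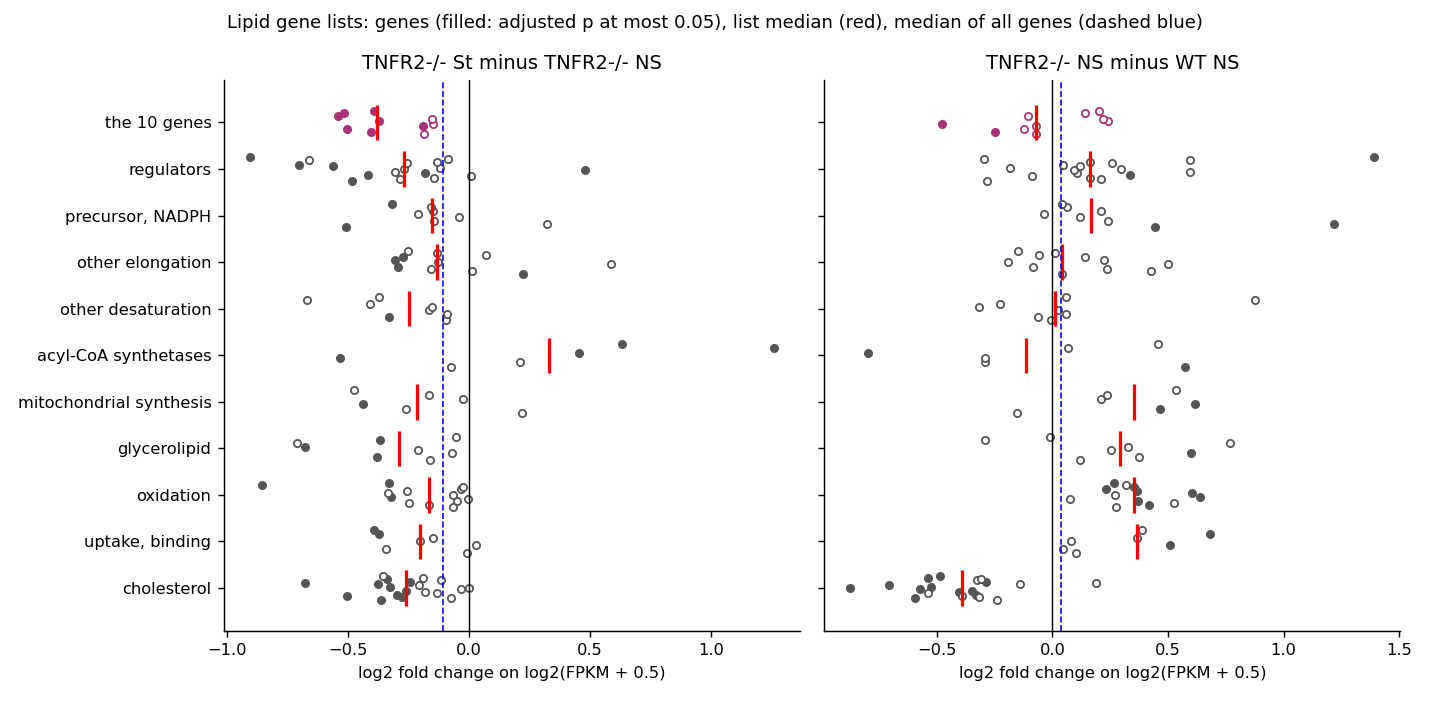
Log2 fold change (x axis) of the genes of 11 lipid lists for stimulation in TNFR2-/- OPCs (left) and for genotype in NS OPCs (right). Points are genes (filled at an adjusted p of at most 0.05), red bars list medians, and the dashed line the median of all genes; oxidation genes lie right of 0 and cholesterol genes, save 1, left of it in the right panel.

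Other enzymes of the same steps moved less evenly. Of 11 further genes of elongation, *Elovl1*, which acts on saturated very long chains, rose by 0.30 (adjusted p = 0.0147) in WT and 0.22 (0.0428) in TNFR2-/- OPCs. In TNFR2-/- OPCs 3 of the 11 fell, against 16.3% of all genes tested. They were *Elovl4*, an elongase of very long chains, by 0.29 (0.0267) and the dehydratases of the elongation cycle *Hacd2* by 0.31 (0.033) and *Hacd3* by 0.27 (0.0206). None of the 11 fell in WT, where 8 had lower means. Of 6 tested acyl-CoA synthetases, which activate free fatty acids, *Acsl5* rose from 28.5 ± 2.45 to 56.0 ± 6.66 FPKM in WT (0.96 ± 0.13, adjusted p = 0.000478) and from 29.8 ± 1.90 to 72.8 ± 13.5 in TNFR2-/- OPCs (SD, n = 3; 1.26 ± 0.13, adjusted p = 5.01e-05). *Acsl4*, which prefers arachidonic acid, differed by −0.80 ± 0.13 (0.0131) between TNFR2-/- NS and WT NS. The synthetase *Acsbg1* went the other way, with 6539 ± 544 FPKM in WT NS and 9711 ± 605 in TNFR2-/- NS. In St OPCs it was at 6114 ± 457 in WT and 9213 ± 230 in TNFR2-/- (SD, n = 3). Between genotypes 1 of the 6 synthetases passed the adjusted p lower and 1 higher in NS, and 1 higher in St OPCs. *Slc27a1*, a fatty acid transporter, was higher in TNFR2-/- OPCs by 0.68 ± 0.11 (0.0116) in NS and 0.61 ± 0.11 (0.0187) in St. Of the enzymes that build glycerolipids from the products, *Dgat2* fell with stimulation in TNFR2-/- OPCs by 0.68 ± 0.14 (0.00468), with −0.43 (0.0579) in WT. *Agpat3* was higher in TNFR2-/- OPCs by 0.60 (0.00727) in NS and 0.64 (0.00864) in St.

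The genes whose pattern over the 12 libraries was most like the median of the 10, by the root mean square difference of log2 values centered on each gene's mean, were *Grik5* (0.0636), *Ehmt2* (0.0643), *Scamp5* (0.0660), *Atxn7l3* (0.0697) and *Zfp740* (0.0704), out of 13544 genes ranked. The 10 genes themselves lay at 0.0724 (*Acaca*) to 0.218 (*Elovl6*).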

How the data were processed

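RNA-seq libraries of cultured mouse OPCs were analyzed as 4 groups of 3. Trimming by the authors used Trim Galore, alignment to GRCm38 and counts of read pairs per gene came from STAR, and the authors deposited FPKM values in 1 table for NS and 1 for St libraries. Both tables used the same divisor for a gene and each library's own total, so they were read on 1 scale. These divisors did not follow annotated gene length. Of 45792 entries, 229 with a shared symbol were left out. For 26636 of 26636 genes above 0 in at least 2 libraries, values gave whole reads within 0.02.

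FPKM were analyzed as log2(FPKM + 0.5) where a gene averaged 0.1 FPKM or more (18081 genes), so fold changes of low genes are understated. A fit of 4 group means over 12 libraries was made with limma 3.58.1 (R 4.3.3), with an intensity trend, and p-values were adjusted by Benjamini-Hochberg over all genes tested. The words rose and fell mark an adjusted p of at most 0.05. Calls also needed a 1.5-fold change and a mean of 1 FPKM. The fit was tested on simulated data. Counting read pairs without molecular identifiers gives no independent molecules, and nothing in the labels says that libraries of a group came from separate animals, so p-values measure the spread between these libraries. 

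The numbers in the labels pair NS and St libraries within a genotype: all 6 same-number pairs correlated over 13554 genes (r from 0.338 to 0.649), against −0.455 to 0.088 for 12 other pairs. Marker sums are given as RPM from the recovered reads. Gene positions and exon lengths are from GENCODE M21 (GRCm38), and promoters from RefSeq. Plots used matplotlib 3.10.9.

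The 10 genes and all lists were chosen with earlier results of these data known. All 10 are named. Of the other lists, regulators and called genes could be named, up to 4 per list and comparison by size of change. Not every called gene is named. *Elovl1*, *Elovl4*, *Hacd2*, *Hacd3*, *Gja1*, *Fgfr3*, *Tubb3*, *Acsbg1* and the value of *Dgat2* in WT were named after their values were seen.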

Additional observations from a re-analysis of the deposited data

How the results depend on the processing

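Of 1240 values of the 10 genes under alternatives, 1131 kept their side of the threshold, 83 lost it, 26 gained it, 0 changed direction while past it and 40 changed sign past it in neither. By all criteria no gene was called in the 4 comparisons, while the adjusted p alone gave 2 (TNFR2-/- NS against WT NS), 6 (WT St against WT NS), 7 (TNFR2-/- St against TNFR2-/- NS) and 2 (TNFR2-/- St against WT St). The 2 in NS OPCs became 1 with no filter on low values, with quantile normalization, in limma without the trend and with both TNFR2-/- replicate 5 libraries left out (chosen after the marker sums were seen), and 0 in a fit of the 6 libraries compared. The 2 in St OPCs became 1 with upper quartile factors or quantile normalization, and 0 with no filter, median-of-ratios factors, no trend, the 6 libraries compared or both replicate 5 libraries left out. The 7 in TNFR2-/- OPCs became 4 with median-of-ratios factors and 3 in the 6 libraries compared. Leaving out 1 library at a time gave 0 to 2 for NS genotype, 2 to 7 for WT stimulation, 0 to 2 for St genotype, and 0 to 3 called by all criteria for TNFR2-/- stimulation. With the replicate block the counts were 2, 9, 9 and 2, and no call of the interaction changed (0). For the 2 genotype comparisons that block was the replicate number shared across genotypes. Libraries matched in this way correlated little (r from −0.078 to 0.204 in 8 pairs). Over all genes, 293 of 524 calls between genotypes in NS were higher in TNFR2-/-, against 213 of 474 after quantile normalization. The cause of these changes was not tested. The 1804 to 162838 read pairs of a gene in a library keep counting error small, and 3 libraries per group set the precision.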
